A study of Mus musculus with 6 samples.

Results

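The genes described here encode 10 receptor subunits through which liver sinusoidal endothelial cells (LSECs), the fenestrated cells that line the liver sinusoids, can sense interleukins. They were chosen by gene symbol and comprise *Il4ra*, *Il13ra1*, *Il2rg*, *Il15ra*, *Il1r1*, *Il1rl1*, *Il1rap*, *Il18r1*, *Il10rb* and *Il17ra*, which are 10 of the 23282 rows of the count tables. Each symbol had a single row. LSECs came from *Txnip-/-* mice on a C57BL/6J background, which lack *Txnip* in the whole body and not only in endothelium, and from C57BL/6J mice as WT controls, with 3 libraries per genotype. The cells were selected with anti-CD146 beads, and the methods place selected LSECs in endothelial growth medium without saying whether the sequenced RNA was taken before or after this. No treatment is labelled, and age and sex are not given for these mice in the sources used here. *Txnip* encodes thioredoxin-interacting protein, a redox regulator, and the comparison asks how its loss changes the transcripts of LSECs. Nothing states that the 3 libraries of a genotype came from separate mice, so the p-values measure the spread between these libraries, which may be technical.

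Interleukin receptors are assembled from subunits, and the subunits decide which ligand a cell answers. IL-4Rα pairs with the common γ chain (*Il2rg*) in the type I receptor for IL-4 and with IL-13Rα1 in the type II receptor for IL-4 and IL-13, and both signal through JAK kinases and STAT6. Receptors of the IL-1 family combine a ligand-binding chain (*Il1r1*, *Il1rl1* or *Il18r1*) with an accessory chain and recruit MyD88. IL-10Rβ and IL-17RA are shared chains that each serve several cytokines. Endothelium is known to answer IL-1 and IL-17 with chemokines and adhesion molecules, and IL-4 and IL-13 with VCAM-1.

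Transcripts were counted by QuantSeq, which makes its reads next to the poly(A) tail, and long transcripts therefore gain no extra counts. Totals ranged from 9147764 to 10193952 counts in the *Txnip-/-* libraries and from 9699159 to 9951078 in the WT libraries. Levels are counts in CPM (scaled to a common library size with TMM factors), given as mean ± SD with n = 3 libraries per genotype. A count of 3, taken as the floor of detection, equals 0.286 to 0.335 CPM. *Txnip* itself had 191 to 269 counts in *Txnip-/-* LSECs and 1901 to 2019 in WT LSECs, so all 6 labels matched. WT replicate 3 stood apart from WT replicates 1 and 2 (chi-square per degree of freedom at least 36.9, against 3.93 between those 2), and its ribosomal RNA row *Rn45s* took 17.8% of the counts, against 9.68% in WT replicate 2 and 10% in WT replicate 1. The *Txnip-/-* libraries had 16.8% to 18.6%. A gene was called differentially expressed (DEG) where edgeR's quasi-likelihood test gave p under 0.05 after Benjamini-Hochberg adjustment over the 11583 genes past the filter on low counts, and the genotypes differed more than 1.3-fold.

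*Il4ra* was the most abundant of these receptor genes in both genotypes and the one DEG among them. Of the 10 genes, 8 passed the filter, 5 with a higher and 3 with a lower mean level in *Txnip-/-* LSECs, while *Il1rl1* and *Il18r1* were at or near the floor. One of the 8 was a DEG, against 1.44% of all tested genes in either direction and 0.509% with a higher level in *Txnip-/-* LSECs. Before adjustment, p lay under 0.05 for 2 of the 8 (*Il4ra* and *Il1r1*), against 11.5% of all tested genes. Libraries of the 2 genotypes did not overlap for 4 of the 8 (*Il4ra*, *Il13ra1*, *Il2rg* and *Il1r1*), against 17.4% of all tested genes. The median log2 fold change of the 8 was 0.24, where that of all tested genes was 0. *Il4ra*, *Il1r1* and *Il18r1* are also shown by the study among inflammation genes from these same libraries, so their direction is not independent evidence.

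**Figure D1:**
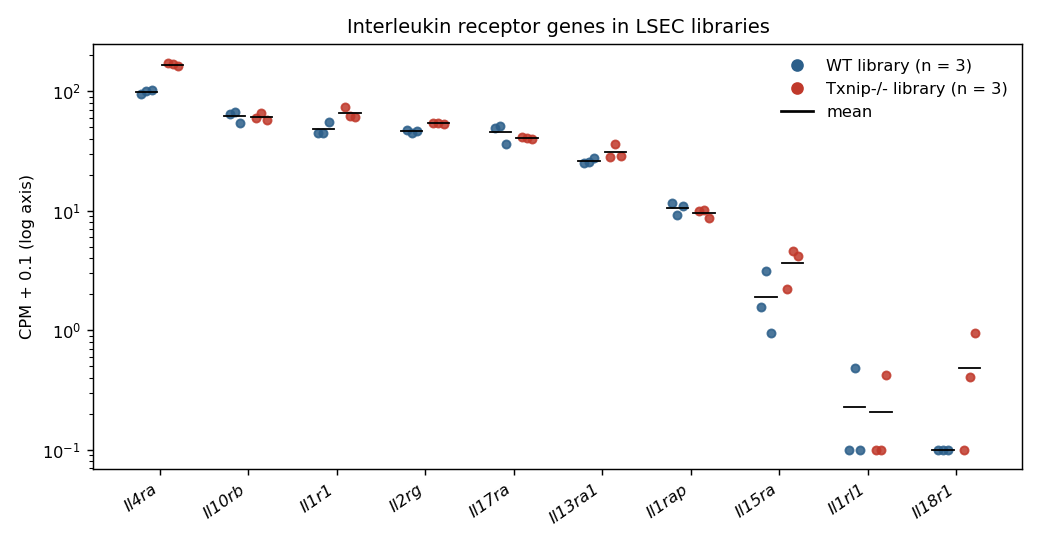
Level of each receptor gene in each library, as CPM + 0.1 on a log axis, with WT libraries in blue, *Txnip-/-* libraries in red and the mean as a black line (n = 3 libraries per genotype). *Il4ra* lies highest, at 94.4 to 102 CPM in WT and 161 to 171 CPM in *Txnip-/-* libraries, and *Il1rl1* and *Il18r1* lie at the bottom.

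In WT LSECs the order of the mean levels was *Il4ra* (99.2 CPM), *Il10rb* (61.8), *Il1r1* (48.2), *Il2rg* (46.1), *Il17ra* (45.7), *Il13ra1* (26.0), *Il1rap* (10.4) and *Il15ra* (1.78), followed by *Il1rl1* and *Il18r1* under the floor. The ranges of *Il10rb* and *Il1r1*, of *Il1r1* and *Il2rg*, and of *Il2rg* and *Il17ra* overlapped, so these neighbours did not differ beyond their spread. *Il4ra* stood above, and *Il13ra1*, *Il1rap* and *Il15ra* each stood apart from their neighbours among the detected genes. In *Txnip-/-* LSECs *Il1r1* (65.3 CPM) came second, ahead of *Il10rb* (60.9 CPM), with overlapping ranges. The mean WT level of *Il4ra* exceeded that of 83.8% of tested genes, and that of *Il15ra* exceeded 6.96%.

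*Il4ra* (ENSMUSG00000030748.9) encodes the chain that both IL-4 receptors share, and occupies bases 125552120 to 125579474 of chromosome 7 (GRCm38, plus strand), with 11 exons in its principal transcript (GENCODE M21). *Txnip-/-* LSECs gave 1532, 1653 and 1510 counts, and WT LSECs gave 970, 1064 and 963. The genotypes were well separated, with no WT library near the lowest *Txnip-/-* value. *Il4ra* rose 1.68-fold, to a mean of 167 ± 4.98 CPM without *Txnip* against 99.2 ± 4.16 CPM in WT (log2 fold change 0.75 with a standard error of 0.09, adjusted p = 0.000146, edgeR). Over the 6 fits that each left out a library, the log2 fold change lay between 0.71 and 0.77 and the adjusted p between 5.74e-05 and 0.00335 (edgeR). *Il4ra* has a splice form for a soluble receptor in the mouse, and a count per gene does not part it from the membrane form.

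The sequence before the *Il4ra* start is shown because this gene is the DEG, beside those of its 2 partner chains, which were not DEGs. RefSeq on GRCm38.p6 gave a promoter for 8 of the 10 genes (not for *Il10rb* and *Il17ra*), in 13 entries, since some genes have more than one start. Each line holds the 250 bases that precede the RefSeq start, read 5′ to 3′ on the strand of the gene. Capitals mark the octamer ATGCAAAT and the GC box GGGCGG, searched on both strands.

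Il4ra (chr7:125552021-125552270, plus strand): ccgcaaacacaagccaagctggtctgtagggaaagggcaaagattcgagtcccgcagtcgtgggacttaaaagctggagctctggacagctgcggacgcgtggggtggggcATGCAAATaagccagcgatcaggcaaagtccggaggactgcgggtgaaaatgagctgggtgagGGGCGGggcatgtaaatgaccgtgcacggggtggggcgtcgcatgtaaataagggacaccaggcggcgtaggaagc
Il13ra1 (chrX:36111858-36112107, plus strand): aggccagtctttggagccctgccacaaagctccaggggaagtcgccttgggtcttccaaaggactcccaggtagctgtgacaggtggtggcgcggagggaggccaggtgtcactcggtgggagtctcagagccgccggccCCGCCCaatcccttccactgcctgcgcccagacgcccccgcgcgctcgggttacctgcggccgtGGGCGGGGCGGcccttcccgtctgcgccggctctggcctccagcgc
Il2rg (chrX:101268256-101268505, minus strand): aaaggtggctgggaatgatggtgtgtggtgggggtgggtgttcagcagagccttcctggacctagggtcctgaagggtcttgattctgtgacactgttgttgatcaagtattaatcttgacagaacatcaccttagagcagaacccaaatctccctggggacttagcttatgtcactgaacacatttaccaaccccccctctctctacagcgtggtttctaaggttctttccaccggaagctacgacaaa

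The *Il4ra* window held the octamer from base -139 and a GC box from base -76 of the RefSeq start, and its GC content was 59.6%, against 70.8% for *Il13ra1* and 49.2% for *Il2rg* and a median of 52.4% over all promoters. Among the 32851 promoters of 300 bases in the table (50 of them after the start), 1.74% held the octamer and 35.7% the GC box. Of the 8 genes with a promoter, the octamer was also found before *Il1rl1*, which was barely detected. The STAT motif TTCNNNGAA (in 8.3% of promoters), the STAT6-type motif with a longer spacer (6.95%) and the AP-1 motif TGANTCA (7.81%), also searched on both strands, were not found in the windows of *Il4ra*, *Il13ra1* or *Il2rg*. An NF-kB-type motif (20.7%) was found before *Il13ra1*, from base -37 on the opposite strand, overlapping the end of a GC box. GENCODE M21 places a further *Il4ra* start at base 125552120, inside the window shown. Both marked motifs of *Il4ra* lie after that start, and before the RefSeq start only. A match is a description of letters and says nothing on binding in these cells.

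*Il2rg*, the common γ chain used by IL-2, IL-4, IL-7, IL-9, IL-15 and IL-21, had 484, 527 and 500 counts in *Txnip-/-* LSECs and 485, 471 and 436 in WT LSECs. Scaled to CPM the genotypes did not overlap, with 53.5 to 54.0 CPM against 44.9 to 47.2 CPM. This 1.17-fold difference did not pass the test (log2 fold change 0.22, 95% interval -0.03 to 0.48, adjusted p = 0.518, edgeR). *Il13ra1*, which encodes the partner of IL-4Rα in the type II receptor, had 252, 351 and 268 counts in *Txnip-/-* libraries and 256, 266 and 262 in WT libraries. Its *Txnip-/-* libraries lay at 28.1, 35.8 and 28.7 CPM, with replicate 2 highest, just above the 24.9 to 27.7 CPM of the WT libraries (log2 fold change 0.25, 95% interval -0.09 to 0.59, adjusted p = 0.613, edgeR). Without *Txnip-/-* replicate 2 the log2 fold change of *Il13ra1* was 0.13. Both intervals reach past a 1.3-fold increase, so an increase of that size could not be told from no change. Both genes lie on the X chromosome, *Il2rg* from 101264378 to 101268255 on the minus strand and *Il13ra1* from 36112110 to 36171259 on the plus strand.

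*Il15ra* (chromosome 2, 11705290 to 11734317), which encodes the chain that binds IL-15 and presents it to neighbouring cells, was sparse. It had 19, 44 and 38 counts in *Txnip-/-* LSECs and 15, 32 and 8 in WT LSECs, so the genotypes overlapped. The log2 fold change of 0.98 had a 95% interval from -0.29 to 2.26 (adjusted p = 0.584, edgeR), and with each library left out it ranged from 0.66 to 1.61. A difference could not be told from the spread between libraries at these counts.

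*Il1r1*, the signalling receptor for IL-1α and IL-1β, was the other gene with an unadjusted p under 0.05. Counts were 664, 604 and 564 without *Txnip* (60.3 to 74.1 CPM) and 461, 471 and 518 in WT (44.9 to 54.8 CPM), with WT replicate 3 the nearest to *Txnip-/-*. Its mean of 65.3 ± 7.65 CPM against 48.2 ± 5.73 CPM gave a log2 fold change of 0.44 (standard error 0.13), which did not pass after adjustment over all genes (adjusted p = 0.138, edgeR). Without WT replicate 3 it did, at a log2 fold change of 0.54 (adjusted p = 0.0335, edgeR). Set against WT replicate 3 alone, through a term for the other two, *Il1r1* differed by 0.25 (adjusted p = 0.545, edgeR). Leaving out any other library gave 0.34 to 0.49, none of which passed. *Il1rap* (chromosome 16, 26581704 to 26730117), which encodes the accessory chain of the IL-1 and IL-33 receptors, had 88, 98 and 80 counts in *Txnip-/-* LSECs and 117, 96 and 102 in WT LSECs. The genotypes overlapped, at 9.46 ± 0.79 CPM against 10.4 ± 1.16 CPM (log2 fold change -0.14, 95% interval -0.67 to 0.39, adjusted p = 0.901, edgeR).

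*Il1r1* lies in a run of 6 receptor genes of the IL-1 family on chromosome 1 of GRCm38, all on the plus strand between 40074079 and 40551705 (477.6 kb). In order along the chromosome these are *Il1r2*, *Il1r1*, *Il1rl2*, *Il1rl1*, *Il18r1* and *Il18rap*. Within this run *Il1r1* alone exceeded 28 counts in any library. *Il1r2*, a decoy receptor, had at most 1 count, and *Il18rap*, the accessory chain of the IL-18 receptor, had 0 counts in all 6 libraries, which allows up to 0.286 to 0.335 CPM per library. *Il1rl2*, the IL-36 receptor, had 21, 0 and 28 counts in *Txnip-/-* LSECs and 6, 18 and 0 in WT LSECs. *Il1rl1* (40429570 to 40465415), which encodes the IL-33 receptor ST2, had 0, 0 and 3 counts against 0, 4 and 0. *Il18r1* (40465552 to 40500854), the IL-18-binding chain, had 0, 3 and 8 counts in *Txnip-/-* LSECs and 0 in each WT library. Counts of this size do not give a fold change, and whether ST2 or the IL-18 receptor differed was not detectable at this depth.

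*Il10rb* (chromosome 16, 91406164 to 91425834), the shared second chain for IL-10, IL-22 and type III interferons, had 536, 647 and 533 counts in *Txnip-/-* LSECs and 662, 702 and 510 in WT LSECs. Its level was 60.9 ± 4.58 CPM against 61.8 ± 6.87 CPM (log2 fold change -0.020, 95% interval -0.28 to 0.24, adjusted p = 0.972, edgeR), so a change beyond 1.3-fold lies outside this interval. When WT replicates 1 and 2 had a term of their own, leaving WT replicate 3 as the control, the log2 fold change was 0.18. *Il10ra*, the chain that binds IL-10 itself, had 0 counts in 5 libraries and 4 in WT replicate 3. The IL-10 partner of this abundant shared chain was thus at most just above the floor at this depth. *Il17ra* (chromosome 6, 120463247 to 120487559), the shared chain of the IL-17 receptors, had 371, 394 and 369 counts in *Txnip-/-* LSECs and 507, 540 and 342 in WT LSECs. WT replicates 1 and 2 lay above all *Txnip-/-* libraries and WT replicate 3 below them. The log2 fold change of -0.18 (95% interval -0.50 to 0.14, adjusted p = 0.724, edgeR) turned to 0.16 with the term for WT replicates 1 and 2. None of the 10 genes shares the last 500 bases of its principal transcript with an exon of another gene in GENCODE M21, on either strand.

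**Figure D2:**
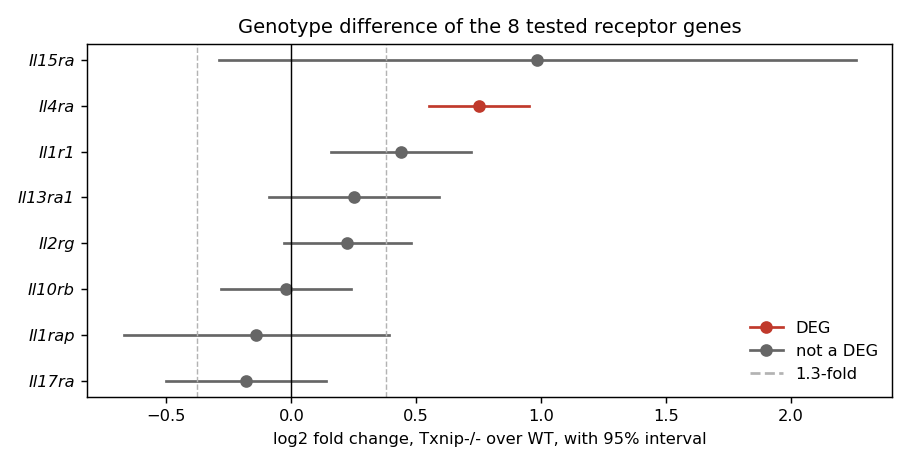
Log2 fold change of *Txnip-/-* over WT with its 95% interval for the 8 receptor genes that passed the filter (edgeR, 3 libraries per genotype, dashed lines at 1.3-fold). *Il4ra* in red, at 0.75, is the one DEG. The interval of *Il1r1* lies above 0 before adjustment, and that of *Il15ra* is the widest.

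Because a receptor needs its subunits together, each chain was also compared with its partner inside a library, as the log2 ratio of the 2 counts (prior count 2), which does not depend on the scaling between libraries. Of the 7 pairs, 5 had both genes above the filter. The ratio of *Il4ra* to *Il13ra1* was 2.59, 2.23 and 2.49 in *Txnip-/-* libraries and 1.91, 1.99 and 1.87 in WT libraries. For *Il4ra* to *Il2rg* it was 1.66, 1.65 and 1.59 against 1.0, 1.17 and 1.14. Thus *Il4ra* was higher relative to either partner in every *Txnip-/-* library, by 0.51 and 0.53 on the log2 scale (1.43-fold and 1.44-fold). These 2 ratios share *Il4ra*, so they are independent neither of each other nor of the call for that gene. The ratio of *Il1r1* to *Il1rap* did not overlap either, at 2.89, 2.60 and 2.79 against 1.96, 2.27 and 2.32, a difference of 0.57 (1.49-fold). For each of these 3 ratios the exact permutation test gave p = 0.1 (two-sided, adjusted p = 0.167 over the 5 ratios), the smallest p that 3 libraries against 3 allow, so the design could not reach 0.05. *Il17ra* to *Il17rc*, the second chain of the IL-17A receptor, differed by -0.35 (exact permutation p = 0.7, adjusted p = 0.7), with WT libraries spread from 1.44 to 3.06. *Il15ra* to *Il2rg* differed by 0.80 (exact permutation p = 0.2, adjusted p = 0.25), and by 0.42 without WT replicate 3 and 1.25 without WT replicate 2.

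**Figure D3:**
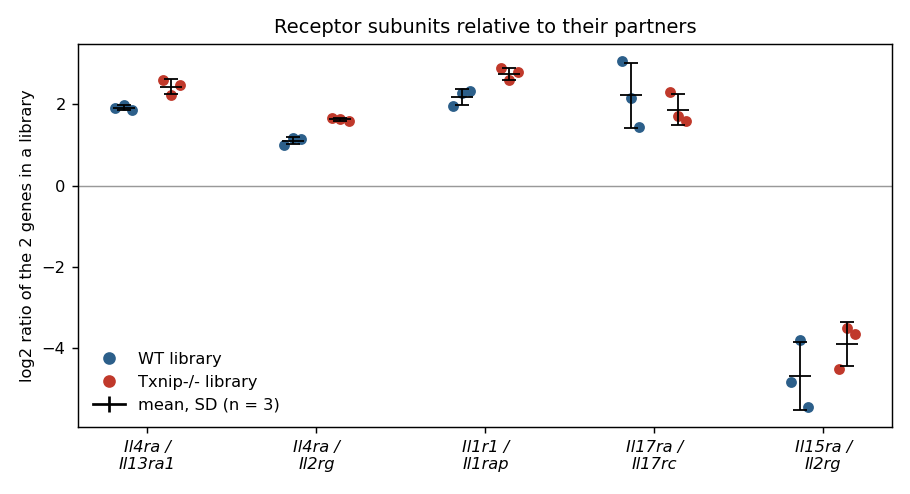
Log2 ratio of each receptor subunit to its partner within a library, with WT libraries in blue, *Txnip-/-* libraries in red, and the mean with SD in black (n = 3 per genotype). The first 3 ratios do not overlap between the genotypes, and *Il17ra* to *Il17rc* and *Il15ra* to *Il2rg* do.

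Other genes of interleukin signalling were taken from lists of further receptors, ligands, JAK-STAT genes, adaptors and NF-kB genes downstream of IL-1 and IL-17, and genes known to respond to IL-4 and IL-13 or to IL-1 and IL-17. Together these lists named 199 further genes, of which 194 were in the tables and 109 passed the filter. Among the 109, 61 had a higher and 48 a lower level in *Txnip-/-* LSECs. There were 10 DEGs (9.17%, against 1.44% of all tested genes), 8 higher and 2 lower, and the median log2 fold change was 0.074. Several of these genes, the chemokines among them, are shown by the study from these libraries, so their counts are not independent evidence.

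The lists of other receptors, ligands and JAK-STAT genes held no DEG. Of all tested genes 1.44% were DEGs, so finding none in lists of this size is near that share. Of 39 other receptor genes, 16 passed the filter (7 higher, 9 lower, median log2 fold change -0.14) and 10 had 0 counts in all libraries, among them *Il2rb*, the β chain that receives IL-2 and IL-15. *Il6st*, the shared gp130 chain of the IL-6 family, was the highest of them at 102 CPM in *Txnip-/-* and 96.5 CPM in WT LSECs. Log2 fold changes of the 16 ran from -2.52 (*Csf2rb2*, adjusted p = 0.112, edgeR) to 1.18 (*Il1rl2*, adjusted p = 0.777, edgeR). *Csf2rb2* had 0, 22 and 7 counts in *Txnip-/-* LSECs and 55, 69 and 53 in WT LSECs. Of 35 ligand genes in the tables only 5 passed the filter, and *Il4*, *Il13* and *Il17a* had 0 counts throughout, while *Il33* had 3 counts in 1 library of each genotype. Of 33 JAK-STAT genes 30 passed (10 higher, 20 lower, median -0.050). *Stat6*, which carries the IL-4 signal, had 774, 754 and 759 counts in *Txnip-/-* LSECs and 858, 839 and 846 in WT LSECs. Scaled to CPM its libraries overlapped between the genotypes, at 81.5 ± 4.79 CPM against 84.3 ± 4.83 CPM (log2 fold change -0.049, adjusted p = 0.915, edgeR). *Jak1*, the kinase bound to IL-4Rα, was the most abundant gene of this list at 704 and 739 CPM.

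Among 35 adaptor and NF-kB genes 34 passed the filter, with 22 higher and 12 lower and a median log2 fold change of 0.12. Of the 34, 2 were DEGs (5.88%, against 1.44% of all tested genes). *Tnip1*, whose product binds A20 and restrains NF-kB, rose to 309 ± 2.68 CPM from 214 ± 30.4 CPM in WT (adjusted p = 0.00796, edgeR, log2 fold change 0.53). *Nfkb2*, the gene of the NF-kB subunit p100, rose to 115 ± 9.12 CPM from 82.8 ± 1.20 CPM (adjusted p = 0.0237, edgeR, log2 fold change 0.47), and its 3′ end overlaps *Psd* on the opposite strand. *Nfkbia*, the NF-kB inhibitor gene, had an adjusted p of 0.0212 (edgeR) but a 1.28-fold difference, short of the fold threshold. Neither call was firm. With a library left out, *Tnip1* stayed a DEG only without WT replicate 3, and *Nfkb2* only without *Txnip-/-* replicate 3 or WT replicate 3, and *Nfkb2* was also lost with the replicate block. Over all 16 other fits their adjusted p reached 0.126 and 0.144 (edgeR, DESeq2 or limma). *Myd88*, the adaptor of the IL-1 receptors, had 32.3 CPM in *Txnip-/-* and 39.5 CPM in WT LSECs (adjusted p = 0.461, edgeR).

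Of 27 genes that respond to IL-4 and IL-13, 11 passed the filter (median 0.094), with 1 DEG in each direction. This was 18.2% of the 11, against 1.44% of all tested genes. *Tgm2*, which encodes transglutaminase 2, rose from 472 ± 33.0 to 647 ± 44.0 CPM (log2 fold change 0.45, adjusted p = 0.00753, edgeR), a call that was lost without *Txnip-/-* replicate 1 or 3 or WT replicate 1 or 2 (adjusted p up to 0.0785 over all 16 other fits). *Mrc1*, the mannose receptor gene of both LSECs and macrophages, fell from 123 ± 13.4 to 72.5 ± 3.29 CPM (log2 fold change -0.76, adjusted p = 0.000718, edgeR). *Vcam1*, the endothelial target of IL-4, had 2212, 2399 and 2370 counts against 2317, 2262 and 2289. Scaled to CPM its libraries did not overlap, at 245 to 253 CPM in *Txnip-/-* and 215 to 242 CPM in WT, as for 17.4% of all tested genes. This difference did not pass the test (log2 fold change 0.12, adjusted p = 0.643, edgeR). *Ccl11*, *Ccl17*, *Ccl22* and *Alox15*, which IL-4 and IL-13 are known to induce, had 0 counts in all 6 libraries. Of 25 genes that respond to IL-1 and IL-17, 13 passed, 12 higher and 1 lower with a median log2 fold change of 0.89. Among the 13, 6 were DEGs (46.2%, against 1.44% of all tested genes). Genes of the chemokines *Ccl2*, *Ccl7*, *Cxcl1*, *Cxcl2* and *Cxcl5* rose by log2 fold changes from 0.89 to 3.26, and *Saa3*, an acute-phase gene, fell by 1.89 on the log2 scale. *Ccl7* was not a DEG without *Txnip-/-* replicate 2 (adjusted p = 0.0669, edgeR).

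**Figure D4:**
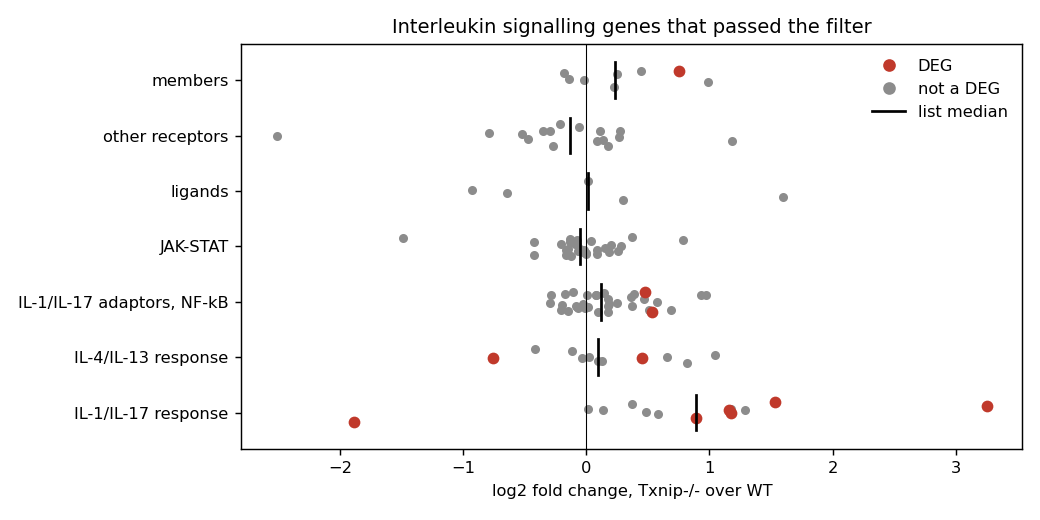
Log2 fold change of *Txnip-/-* over WT for each gene that passed the filter, by list, with DEGs in red, other genes in grey and the list median as a black line (3 libraries per genotype). DEGs lie in the members, the adaptor list and both response lists. The receptor, ligand and JAK-STAT lists hold none, where 1.44% of all tested genes were DEGs.

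Markers were used to check the label and to set the levels of other liver cells beside the receptor genes. All 11 endothelial markers passed the filter and summed to 3420 to 3770 CPM in *Txnip-/-* and 3720 to 4350 CPM in WT libraries, led by *Cdh5* (VE-cadherin). All 11 had a lower mean in *Txnip-/-* LSECs (median log2 fold change -0.21), 4 of them at an unadjusted p under 0.05, and none was a DEG (edgeR). LSEC markers summed to 3150 to 3660 CPM in *Txnip-/-* libraries, to 5480 and 5850 CPM in WT replicates 1 and 2 and to 3550 CPM in WT replicate 3. *Lyve1* led these sums, with 3480 and 3780 CPM in WT replicates 1 and 2. It had 1520 CPM in WT replicate 3, within the 1470 to 1980 CPM of the *Txnip-/-* libraries. The 11 tested LSEC markers were all lower in *Txnip-/-* LSECs on average, and 2 were DEGs (18.2%, against 1.44% of all tested genes). For 8 of the 11, *Lyve1* not among them, all WT libraries lay above all *Txnip-/-* libraries, where 17.4% of all tested genes did not overlap. Kupffer cell and macrophage markers were present and lower in *Txnip-/-* libraries. Their 20 genes summed to 411 to 442 CPM against 933 to 972 CPM, and 14 of the 18 tested were DEGs (77.8%), all lower. *Marco* was the highest of them, at 83.2 and 175 CPM. *Clec4f*, which defines Kupffer cells, had 35 to 95 counts in *Txnip-/-* and 125 to 197 in WT libraries, but was not a DEG (adjusted p = 0.0917, edgeR). In bulk libraries, fewer cells of a type and less RNA per cell cannot be told apart. Macrophages also express *Il4ra*, *Il2rg*, *Il10rb* and *Il17ra*, and *Il4ra* moved opposite to the macrophage markers. The part of the macrophage markers in the receptor levels was not tested.

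The 12 stellate cell markers summed to 74.5 to 97.9 CPM in *Txnip-/-* libraries and 52.3 to 57.2 CPM in WT libraries. Of the 11 tested, 2 were DEGs (18.2%, against 1.44% of all tested genes), both higher, including *Dcn*, the highest of the list. Of these 11 markers, 10 had a higher mean in *Txnip-/-* LSECs, as *Il4ra* did, and 1 a lower (*Ecm1*, log2 fold change -0.30). Their part in the receptor levels was not tested. Of the 18 T, NK and innate lymphoid markers in the tables, 8 (*Cd3d*, *Cd3e*, *Nkg7*, *Gzma*, *Klrb1c*, *Ncr1*, *Il2rb* and *Cd2*) had 0 counts in every library and 2 passed the filter. The list summed to 23.5 to 37.2 CPM, most of it *Rora*, which other cells express too. The other gene that passed was *Cd247*, the ζ chain of the T cell receptor complex, with 5, 43 and 10 counts in *Txnip-/-* and 32, 27 and 35 in WT libraries. *Il2rg* is known from lymphocytes, and the part of these markers in its level was not tested. The B cell and neutrophil lists summed to at most 2.54 CPM in any library. In the mast cell and basophil list 6 of 9 genes (*Cpa3*, *Mcpt4*, *Mcpt8*, *Ms4a2*, *Fcer1a* and *Cma1*) had 0 counts, and *Kit*, which endothelium also expresses, led its sum of 120 to 145 CPM. Hepatocyte markers (led by *Alb*) summed to 56.2 to 64.7 CPM in *Txnip-/-* and 50.3 to 52.8 CPM in WT libraries. Of the 7 tested, 6 were higher and 1 lower in *Txnip-/-* LSECs, with 0 DEGs, and their part in the receptor levels was not tested. Cholangiocyte markers summed to 2.92 to 7.83 CPM.

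**Figure D5:**
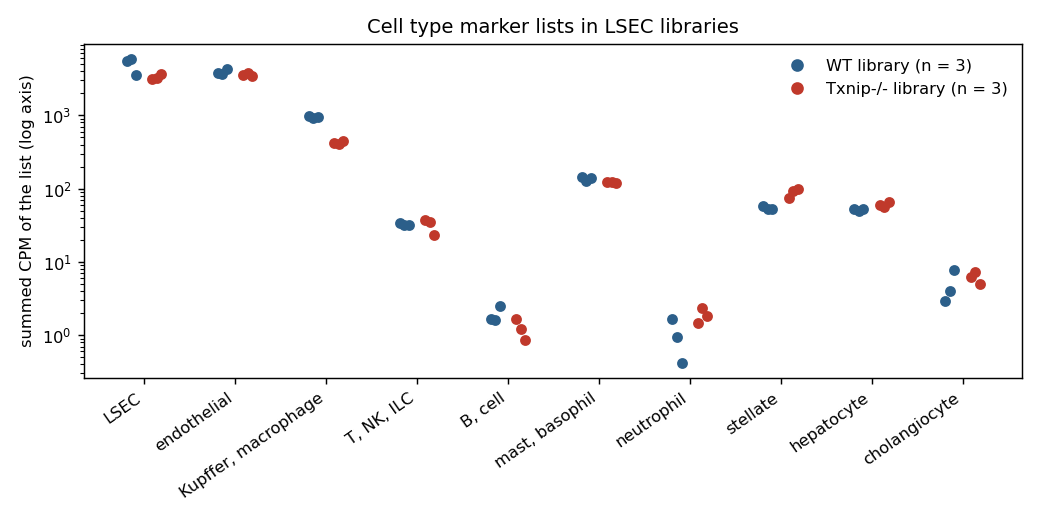
Summed CPM of each cell type marker list in each library on a log axis, with WT libraries in blue and *Txnip-/-* libraries in red (3 per genotype). The macrophage list lies at 411 to 442 CPM in *Txnip-/-* and 933 to 972 CPM in WT libraries, and the B cell and neutrophil lists are lowest.

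The genes whose levels followed *Il4ra* most closely were ranked by Pearson's r of log2 CPM over the 6 libraries, among 8024 other genes averaging at least 10 CPM. The first 5 were *Fstl1* (r = 0.993), *Bco1* (0.992), *Ccl2* (0.990), *Csf1* (0.988) and *Psg22* (0.988). All 5 were DEGs with higher levels in *Txnip-/-* LSECs, so the 6 points fall into the 2 genotypes. *Fstl1*, which encodes follistatin-like 1, had 457, 500 and 449 counts against 200, 196 and 179. *Csf1*, the gene of the macrophage growth factor CSF-1, rose from 375 to 626 CPM (log2 fold change 0.74, near the 0.75 of *Il4ra*). *Psg22* belongs to a family of near-identical genes, and counting of multiple alignments can give it reads of its relatives.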

How the data were processed

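QuantSeq 3′ mRNA-Seq single-end reads of 6 LSEC libraries, 3 per genotype, were aligned by the authors with Bowtie2, counted from unique and multiple alignments with Bedtools, and deposited as whole-number counts per gene symbol without normalization. The submitters' processing notes name mm10. Versions, the annotation and the use of strand are not given in the sources used here, and no molecular identifiers are named, so floors cover counting error only. Reads with several alignments count for each copy of a gene.

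In R 4.3.3, edgeR 4.0.16 was run with filterByExpr (11583 of 23282 rows), TMM factors, glmQLFit and glmQLFTest, on a design of genotype alone. Intervals at 95% were taken from the log2 fold change, its F statistic and its degrees of freedom, and are not adjusted. Partner ratios were compared with an exact permutation test, and pairs with a gene below the filter (*Il1rl1* or *Il10ra*) were left out. DESeq2 1.42.0 and limma 3.58.1 were alternatives, beside other factors and filters, the replicate block, left-out libraries and other thresholds. The fits were tested on simulated data. The 1.3 cutoff that the methods give for a log fold change was read as a fold change, with log2 as an alternative. Coordinates are those of GENCODE M21 on GRCm38, which mm10 corresponds to.

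Genes named were the 10 members, DEGs of the pathway lists (up to 8 a list), receptor partners and the 5 genes most like a member DEG. The highest marker was named for each list but those of B cells, neutrophils and cholangiocytes. Markers at 0 were named for the lymphoid (T, NK and innate) and mast cell lists only. *Clec4f*, *Cd247*, *Csf2rb2*, *Stat6*, *Myd88*, *Vcam1*, *Nfkbia*, *Il33*, *Il2rb* and the IL-1 receptor cluster were added after values were seen. So were the highest genes of the receptor and JAK-STAT lists and the genes at 0. Members, lists and alternatives were chosen with earlier results of these data known. The replicate numbers did not pair the libraries.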

Additional observations from a re-analysis of the deposited data

How the results depend on the processing

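*Il4ra* stayed a DEG in all 16 other fits (log2 fold change 0.67 to 0.77, adjusted p from 9.85e-12 to 0.00335, edgeR, DESeq2 or limma), and fell out only at a log2 fold change above 1.3. Among the receptor genes 1 or 2 were called with a library left out, the second being *Il1r1* without WT replicate 3. At a log2 fold change above 1.3 there were 0, and at an unadjusted p 2. For *Il10rb* and *Il17ra* the term for WT replicates 1 and 2 gave 0.18 and 0.16, opposite in sign to the main values, and *Il10rb* ranged from -0.11 to 0.041 with a library left out. The ratio of *Il17ra* to *Il17rc* then ranged from -0.74 to 0.074. The 167 DEGs among all genes became 252 with DESeq2, 301 without a filter on low counts, 57 at a log2 fold change above 1.3, 867 at an unadjusted p, and 89 to 301 with a library left out (301 without WT replicate 3). Leaving out *Txnip-/-* replicates 1 and 2 gave 95 and 98, and WT replicates 1 and 2 89 and 95. Pathway list DEGs, 10 in the main fit, were 3 and 20 under those 2 thresholds. The cause of these shifts was not tested. With the replicate number as a block, 108 genes were DEGs and *Il4ra* remained the one member. Same-numbered libraries had deviations with correlations of -0.030, 0.017 and -0.047, so they share only a number. No normalization factors shifted the median of all genes by -0.082. *Il15ra*, *Il1rl1* and *Il18r1* had the lowest counts of the receptor genes.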
